A study of Mus musculus with 2 samples.

Results

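The COUP-TF, Tlx and retinoid nuclear receptors are DNA-binding transcription factors of the nuclear receptor family, and 10 of their genes were taken by symbol from the deposited tables: Nr2f1, Nr2f2, Nr2f6, Nr2e1, Nr6a1, Rara, Rarb, Rarg, Rxra and Rxrg. They were 10 of the 43437 genes in the gene table, and 53 of the 103615 isoforms in the isoform table belonged to them. RNA-seq compared the telencephalon with the whole body of mouse fetuses at E12.5. All were wild-type animals of the ICR strain without treatment, and each tissue gave 1 library. ICR is an outbred stock, and the telencephalon is the front of the embryonic brain, which forms the cerebral cortex and the basal ganglia. The sources used here do not state how many fetuses entered a library, their sex, or whether the body samples kept the head.

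Retinoic acid receptors (RARs) bind DNA as pairs with retinoid X receptors (RXRs), hold corepressors at their sites without ligand, and exchange them for coactivators when retinoic acid binds. COUP-TFs bind overlapping sites, mostly as repressors, and can also pair with RXRs. In the embryonic forebrain COUP-TFs are known for the patterning of cortical areas and the migration of interneurons, and Tlx, the product of Nr2e1, for keeping neural progenitors dividing.

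The part of these proteins that reads DNA is shown first, since it sets the COUP-TF genes and Nr2e1 apart from the other 6 genes. Each line gives the 30 bases of the transcript that encode the end of the first zinc finger, 5′ to 3′, read from the GENCODE M21 transcripts of build GRCm38. Capitals mark the codons of the 3 P-box residues, which contact the bases of the hormone response element.
Nr2f1: tgcGAGGGCtgcaaaAGTttcttcaagagg
Nr2f2: tgcGAGGGCtgcaagAGCttcttcaagcgc
Nr2f6: tgcGAGGGCtgcaagAGTttcttcaagcgc
Nr2e1: tgcGACGGCtgctccGGAttcttcaagagg
Nr6a1: tgcGAGGGCtgcaagGGGtttttcaagagg
Rara: tgtGAGGGCtgtaagGGCttcttccgacga
Rarb: tgcGAGGGGtgcaagGGCtttttccgcaga
Rarg: tgtGAAGGCtgcaagGGCttcttcagacgc
Rxra: tgtGAGGGCtgcaagGGCttcttcaagagg
Rxrg: tgtGAAGGTtgcaaaGGCttcttcaaaagg
The 3 COUP-TF genes encode glutamate, glycine and serine there, Nr2e1 alone encodes aspartate, glycine and glycine, and the other 6 genes share glutamate, glycine and glycine.

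Levels are FPKM as deposited, which are fragments per kilobase of transcript divided by the library's mapped fragments. Levels of different genes are therefore compared per length. With 1 library per tissue there is no replicate error, no test was made, and every difference below is between these libraries. A gene was measured if it had at least 1 FPKM in either library, and it was called higher or lower if it differed at least 2-fold after 1 FPKM was added to both values. The low values gave an estimated depth of 22700000 fragments in telencephalon and 29300000 fragments in whole body. Fragment numbers per gene are estimates from these depths, and their 95% exact binomial intervals cover counting error only. Intervals for isoforms also leave out the error in how fragments were divided among the isoforms of a gene. Telencephalon markers summed to 974 FPKM in telencephalon and 50.7 FPKM in whole body, and 9 of 10 were higher in telencephalon. Neural progenitor markers, 6 of 6 higher, summed to 567 FPKM in telencephalon and 126 FPKM in whole body, and neuron markers, 4 of 4 higher, to 756 FPKM in telencephalon and 173 FPKM in whole body. The defining genes of the labelled tissue were thus present. The 10 markers of mesenchyme and meninges were all lower in telencephalon, lay between 0.310 and 6.80 FPKM in telencephalon and summed to 18.4 FPKM there, against 1704 FPKM in whole body. Hepatoblast markers, 6 of 6 lower, summed to 2.77 FPKM in telencephalon and 1986 FPKM in whole body, and muscle markers, 6 of 6 lower, to 1.70 FPKM in telencephalon and 682 FPKM in whole body. The liver genes Apoa2 and Serpina1a were listed at 0 in telencephalon. Erythroid markers, 6 of 6 lower, summed to 18.7 FPKM in telencephalon and 697 FPKM in whole body, and eye and choroid plexus markers, 3 of 4 measured lower, to 8.58 FPKM in telencephalon and 160 FPKM in whole body, with the eye gene Rax listed at 0 in telencephalon. Surface epithelium markers, 6 of 6 lower, summed to 1.12 FPKM in telencephalon and 100 FPKM in whole body, with Krt14 and Krt18 listed at 0 in telencephalon. Blood and vessel RNA was present in telencephalon too: the embryonic globin gene Hbb-y, named after its value was seen, had 2153 FPKM in telencephalon and 3360 FPKM in whole body, and the erythroid gene Alas2 had 11.9 FPKM in telencephalon and 188 FPKM in whole body. Endothelial markers, 5 of 6 lower, were present in both, at a summed 45.7 FPKM in telencephalon and 112 FPKM in whole body.

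All 10 receptor genes were measured. Nr2f1, Nr2f2 and Nr2e1 were higher in telencephalon, Nr2f6, Rara, Rarb, Rarg and Rxra were lower, and Nr6a1 and Rxrg lay within 2-fold. That is 3 higher and 5 lower of 10, while among all 14987 measured genes 9.39% were higher, 21.2% were lower and 30.5% passed 2-fold either way. The median log2 ratio of FPKM + 1, telencephalon over whole body, was -0.99 for the 10 genes and -0.16 for all measured genes. In these bulk samples, fewer cells of a type and less RNA per cell cannot be told apart. In telencephalon the levels ran from Nr2f1 through Nr2f2, Nr2e1, Nr2f6, Rxra, Rara, Rxrg, Rarb and Nr6a1 down to Rarg. In whole body the order was Nr2f1, Nr2f2, Rxra, Nr2f6, Rarg, Rara, Rarb, Rxrg, Nr6a1 and Nr2e1, so Nr2e1 stood in place 3 in telencephalon and place 10 in whole body, and Rarg in place 10 in telencephalon and place 5 in whole body. Without replicates, no spread is known against which neighbours in these orders could be separated.

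**Figure D1:**
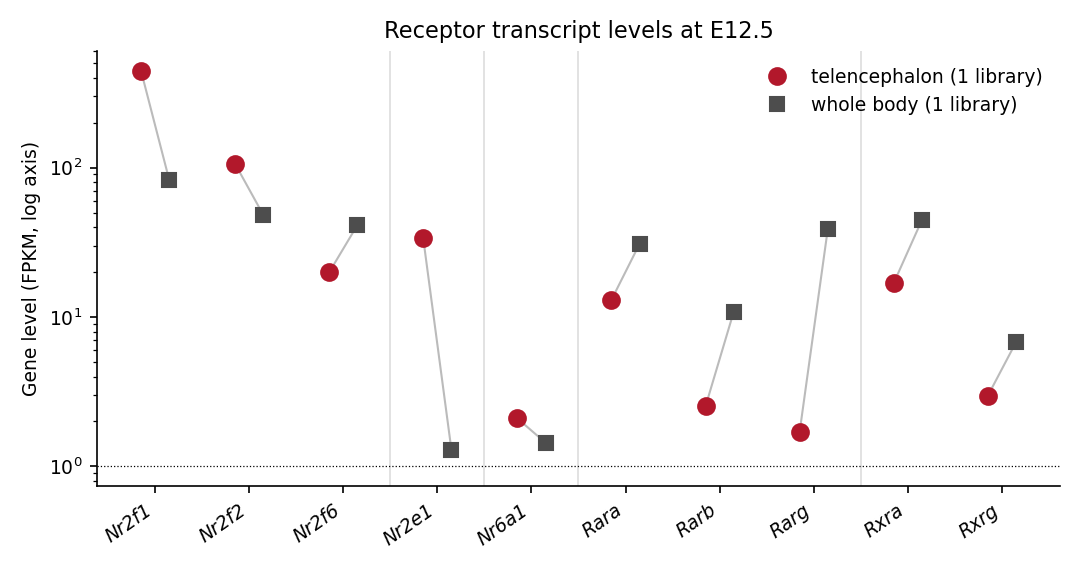
Level of each of the 10 receptor genes in FPKM on a log axis, with a circle for the telencephalon library, a square for the whole body library and a dotted line at 1 FPKM. Nr2f1, Nr2f2 and Nr2e1 slope down towards whole body, where Nr2e1 sits at 1.29 FPKM, while the RAR and RXR genes slope up, Rarg most steeply, with 1.70 FPKM in telencephalon and 38.9 FPKM in whole body.

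Nr2f1 (ENSMUSG00000069171) encodes COUP-TFI, which sets the extent of the caudal sensory areas of the cortex, and lies at chr13:78188973-78199757 on the minus strand. It had 446 FPKM in telencephalon and 82.9 FPKM in whole body, a 5.38-fold higher level in telencephalon and a log2 ratio of 2.41. It was the gene with rank 78 among all measured genes in telencephalon, and rank 807 in whole body. By estimated fragments the fold was 4.81 (95% interval 4.61 to 5.02). In both libraries Nr2f1 had the highest FPKM of the 10 genes, in whole body mostly through Nr2f1-202, an isoform of 841 bases.

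Nr2f2 (ENSMUSG00000030551) encodes COUP-TFII, known for the identity of veins and for interneurons from the caudal ganglionic eminence, and lies at chr7:70351944-70366735 on the minus strand. It had 106 FPKM in telencephalon and 48.3 FPKM in whole body, 2.20-fold higher in telencephalon, with a log2 ratio of 1.12. The fragment fold was 2.08 (95% interval 1.99 to 2.17), so Nr2f2 stood close to the 2-fold line. Nr2f6 (ENSMUSG00000002393), the most divergent COUP-TF and an orphan repressor, lies at chr8:71374123-71381960 on the minus strand. It had 19.9 FPKM in telencephalon and 41.2 FPKM in whole body, 2.07-fold lower in telencephalon (fragment interval 1.90 to 2.26). Its log2 ratio of -1.01 was at the 2-fold line: it was -0.95 with a common upper quartile, -0.87 in TPM and -0.99 without isoforms under 1000 bases, all under 2-fold, and past it at -1.05 with a pseudocount of 0.1 FPKM and -1.03 by depth-scaled fragments.

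The COUP-TF genes differed from each other in direction, and the make-up of the family differed between the tissues. Their levels summed to 572 FPKM in telencephalon and 172 FPKM in whole body, 3.32-fold higher in telencephalon. Nr2f1 made up 78.0% of the sum in telencephalon and 48.1% in whole body. Nr2f2 made up 18.5% in telencephalon and 28.0% in whole body, and Nr2f6 3.48% in telencephalon and 23.9% in whole body. By depth-scaled fragments, which carry no division by isoform length, the family sum was 2.61-fold higher in telencephalon and Nr2f1 made up 62.2% of it in telencephalon and 33.8% in whole body. On that scale Nr2f2 made up 33.3% in telencephalon and 41.8% in whole body, where it had more fragments than Nr2f1.

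Most of the FPKM of Nr2f1 and Nr2f2 was assigned to isoforms that lack the zinc finger stretch printed above. Only Nr2f1-201, of 3207 bases, holds it, and it had 88.1 FPKM in telencephalon and 20.0 FPKM in whole body, 19.7% of the gene in telencephalon and 24.2% in whole body. The isoform Nr2f1-202, of 841 bases, had 298 FPKM in telencephalon and 57.0 FPKM in whole body. Most of the rest was Nr2f1-203, of 991 bases, which had 58.8 FPKM in telencephalon and 5.26 FPKM in whole body, an 11.2-fold difference against 4.39-fold for Nr2f1-201 and 5.23-fold for Nr2f1-202. FPKM divides by length, and by estimated fragments Nr2f1-201 was the leading isoform, with 56.9% in telencephalon and 62.6% in whole body.

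Nr2f2 showed the same arrangement. Nr2f2-201, of 4222 bases and with the zinc finger stretch, had 37.9 FPKM in telencephalon and 19.3 FPKM in whole body. Nr2f2-202, of 1664 bases and without it, had 68.1 FPKM in telencephalon and 29.0 FPKM in whole body. With only the isoforms that hold the stretch, the log2 ratio was 2.08 for Nr2f1 and 0.94 for Nr2f2, which for Nr2f2 is under 2-fold. For Nr2f6 it was -0.99, also under 2-fold, and 85.1% of the FPKM in telencephalon and 84.5% in whole body came from Nr2f6-201.

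Both COUP-TF genes with a higher level have an antisense neighbour, and the kit did not mark strand. A830082K12Rik, an antisense RNA that shares 123 exon bases with Nr2f1, had 22.7 FPKM in telencephalon and 5.94 FPKM in whole body, 3.81-fold higher in telencephalon. B130024G19Rik, which shares 643 exon bases with Nr2f2, had 1.17 FPKM in telencephalon and 1.21 FPKM in whole body. A830082K12Rik shared no bases with Nr2f1-202, the Nr2f1 isoform of highest FPKM. No B130024G19Rik isoform of at least 1 FPKM in either library shared bases with Nr2f2-202. Its isoforms below 1 FPKM were not counted. For Nr2f6, 914 of the 2218 bases of Nr2f6-201 (41.2%) are also exons of Ocel1 on the other strand, and Ocel1 had 6.20 FPKM in telencephalon and 5.67 FPKM in whole body. Reads from these shared bases cannot be told apart. In stretches of 50 bases, 41.9% of those of Nr2f6 also occurred in transcripts of Ocel1, 12.9% of those of Nr2f2 and 1.46% of those of Nr2f1 in transcripts of other genes. The other genes within 10000 bases of Nr2f6 were Use1, with 35.7 FPKM in telencephalon and 42.1 FPKM in whole body, and Ushbp1, with 0.301 FPKM in telencephalon and 1.28 FPKM in whole body.

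Nr2e1 (ENSMUSG00000019803) encodes Tlx, an orphan receptor of neural progenitors, and lies at chr10:42561963-42583632 on the minus strand. It had 33.6 FPKM in telencephalon and 1.29 FPKM in whole body, 26.1-fold higher in telencephalon, with a log2 ratio of 3.92. The fragment estimates were 2226 in telencephalon and 112 in whole body, and the fold by depth was 25.7 (95% interval 21.2 to 31.2). Its log2 ratio was the largest of the 10 genes and of the 49 nuclear receptor genes compared here. Nr2e1-201 carried 98.8% of the FPKM in telencephalon and 100% in whole body, so the ratio does not rest on how fragments were divided among isoforms. Ostm1, on the other strand with 190 bases between the genes, had 16.5 FPKM in telencephalon and 5.69 FPKM in whole body, 2.89-fold higher in telencephalon.

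All 39 other nuclear receptors had lower log2 ratios than Nr2e1. Over these 2 libraries the receptors with the closest log2 ratios were Thra, with 205 FPKM in telencephalon and 84.6 FPKM in whole body, Esrrg, with 8.24 FPKM in telencephalon and 3.02 FPKM in whole body, and Esrra, with 14.0 FPKM in telencephalon and 7.31 FPKM in whole body. Thra encodes a thyroid hormone receptor, and Esrrg and Esrra encode estrogen-related receptors. Their log2 ratios lay 2.65, 2.72 and 3.06 below that of Nr2e1. Nr2f1 ranked 1 by level among the 49 receptors in telencephalon, Thra 2, Nr2f2 3 and Nr2e1 6. In whole body Thra ranked 1, Nr2f1 2 and Nr2f2 3, and Nr2e1 ranked 27.

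Genes reported under the control of Tlx in other studies were described as a list of 6. Of the 5 that were measured, 1 was higher in telencephalon, 3 were lower and 1 was within 2-fold, with a median log2 ratio of -1.12. The shares over all measured genes were 9.39% higher and 21.2% lower. Wnt7a, a signal for progenitor division that Tlx is known to activate, had 28.9 FPKM in telencephalon and 2.02 FPKM in whole body. Cdkn1a, a cell cycle inhibitor that Tlx is known to repress, had 7.22 FPKM in telencephalon and 16.9 FPKM in whole body. The astrocyte genes Gfap, S100b and Aqp4, reported as repressed by Tlx, had 0.0570, 0.0383 and 0.0463 FPKM in telencephalon, against 1.44, 2.17 and 0.258 FPKM in whole body. Astrocytes form after this age, and all 3 genes were low in both libraries.

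Nr6a1 (ENSMUSG00000063972) encodes GCNF, an orphan receptor known for silencing Pou5f1 after gastrulation and for the formation of the trunk, and lies at chr2:38723370-38927688 on the minus strand. It was low in both tissues, with 2.10 FPKM in telencephalon and 1.44 FPKM in whole body, and its log2 ratio was 0.35. By depth-scaled fragments the direction turned, to a log2 ratio of -0.48, with 129 estimated fragments in telencephalon and 242 in whole body and a level 1.46-fold lower in telencephalon (95% interval 1.17 to 1.82). The longest isoform Nr6a1-202, of 6334 bases, which the annotation flags as incomplete at an end, had 0.649 FPKM in telencephalon and 1.37 FPKM in whole body. Nr6a1-208, of 719 bases, had 1.14 FPKM in telencephalon and was listed at close to 0 in whole body, and it held 54.3% of the gene's FPKM in telencephalon on an estimated 9.92 fragments. Nr6a1-201, of 5941 bases and not flagged, had 0.230 FPKM in telencephalon and was close to 0 in whole body. The data therefore give no direction for Nr6a1.

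Of the 8 genes linked to Nr6a1, only Lin28b, a repressor of let-7 maturation, was measured, with 0.988 FPKM in telencephalon and 2.69 FPKM in whole body. The pluripotency genes Pou5f1 and Nanog had 0.200 and 0.159 FPKM in telencephalon, against 0.426 and 0.366 FPKM in whole body. Lin28a had 0.485 FPKM in telencephalon and 0.845 FPKM in whole body. The germ cell genes Gdf9, Bmp15, Prm1 and Prm2 had 0.724, 0.0161, 0.330 and 0.617 FPKM in telencephalon, and 0.463 and 0.0249 FPKM for Gdf9 and Bmp15 in whole body, where Prm1 and Prm2 were listed at 0. The antisense transcript Nr6a1os, which shares no exon bases with Nr6a1, had 0.698 FPKM in telencephalon and 1.34 FPKM in whole body, and the neighbour Olfml2a had 0.586 FPKM in telencephalon and 3.26 FPKM in whole body.

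The 3 RAR genes were all lower in telencephalon, by different amounts. Their levels summed to 17.2 FPKM in telencephalon and 80.6 FPKM in whole body, 4.68-fold lower in telencephalon, and 4.70-fold lower by depth-scaled fragments. Rara made up 75.5% of the sum in telencephalon and 38.3% in whole body. Rarb made up 14.6% in telencephalon and 13.5% in whole body. Rarg made up 9.84% in telencephalon and 48.2% in whole body, where it was the leading RAR. The summed markers of mesenchyme, liver, muscle and surface epithelium moved in the same direction with larger ratios than the RAR sum, as given above. Not every single marker differed more than Rarg did. The part of these markers in the RAR differences was not tested.

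**Figure D2:**
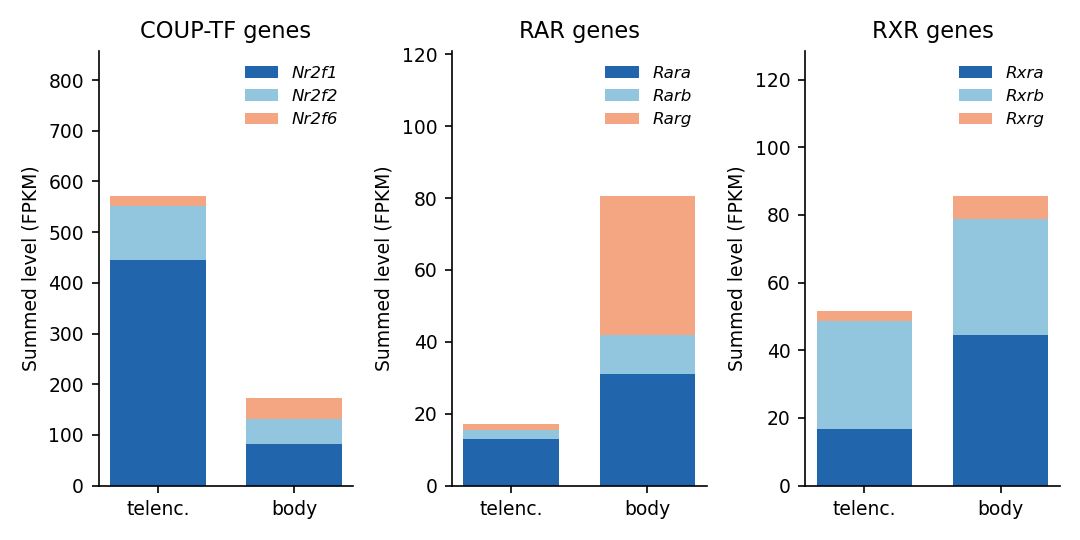
Summed FPKM of the COUP-TF, RAR and RXR genes in the telencephalon and whole body libraries, stacked by gene, each panel with its own axis from 0. The COUP-TF bar is taller in telencephalon, at 572 FPKM against 172 FPKM in whole body, and the RAR bar is shorter, at 17.2 FPKM in telencephalon against 80.6 FPKM in whole body, with the Rarg segment nearly absent in telencephalon.

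Rara (ENSMUSG00000037992), the most widely expressed RAR in the embryo, lies at chr11:98927818-98974942 on the plus strand. It had 13.0 FPKM in telencephalon and 30.9 FPKM in whole body, 2.38-fold lower in telencephalon (fragment interval 2.17 to 2.58), with a log2 ratio of -1.19. By the fragments assigned to them, its isoforms did not move together. The intervals below leave out the error in that assignment, so they cannot decide whether the starts differ. Rara-203, which starts at position 98927818, had 7.02 FPKM in telencephalon and 4.06 FPKM in whole body, 1.73-fold higher in telencephalon (95% interval 1.45 to 2.03, from 326 fragments in telencephalon and 245 in whole body). The 3 isoforms that start between 98937698 and 98939711, led by Rara-204, had 2.05 FPKM in telencephalon and 20.2 FPKM in whole body, 9.85-fold lower in telencephalon (95% interval 8.13 to 12.4, from 99 fragments in telencephalon and 1272 in whole body). Rara-202, which starts at 98960412, had 3.95 FPKM in telencephalon and 6.68 FPKM in whole body, 1.69-fold lower. Rara-203 thus led in telencephalon with 53.9% of the gene, against 13.1% in whole body, and the middle starts led in whole body with 65.3%, against 15.8% in telencephalon. Its neighbours were Cdc6, with 8.56 FPKM in telencephalon and 15.9 FPKM in whole body, and Gjd3, with 1.84 FPKM in telencephalon and 1.85 FPKM in whole body.

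Rarb (ENSMUSG00000017491), a receptor gene that is itself induced by retinoic acid, lies at chr14:16430839-16819156 on the minus strand. It had 2.52 FPKM in telencephalon and 10.8 FPKM in whole body, 4.30-fold lower in telencephalon (fragment interval 3.65 to 5.15), with a log2 ratio of -1.75. The isoform table holds a single isoform of it, Rarb-201, with 159 estimated fragments in telencephalon and 885 in whole body. Of its 3108 bases, 1793 (57.7%) are also exons of Top2b on the other strand. Top2b, a DNA topoisomerase of neurons and other cells, had 74.7 FPKM in telencephalon and 36.4 FPKM in whole body, 2.05-fold higher in telencephalon, opposite to Rarb. Reads from the shared bases cannot be assigned to a strand with this kit, so the level of Rarb is less certain than that of Rara and Rarg, and how the reads were divided was not tested.

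Rarb and Cyp26a1, which encodes an enzyme that breaks retinoic acid down, are the textbook genes with a retinoic acid response element close to their start, and their promoters are shown for that element. Each line gives the 250 bases before the RefSeq start on build GRCm38.p6, 5′ to 3′ along the gene, with capitals on a direct repeat of hexamers spaced by 5 bases. Rarb is chr14:16575477-16575726 on the minus strand and Cyp26a1 is chr19:37697558-37697807 on the plus strand.
Rarb: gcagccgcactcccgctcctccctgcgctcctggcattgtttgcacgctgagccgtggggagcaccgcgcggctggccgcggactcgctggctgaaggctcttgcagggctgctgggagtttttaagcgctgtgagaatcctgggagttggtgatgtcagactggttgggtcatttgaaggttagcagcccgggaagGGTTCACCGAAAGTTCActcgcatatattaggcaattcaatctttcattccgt
Cyp26a1: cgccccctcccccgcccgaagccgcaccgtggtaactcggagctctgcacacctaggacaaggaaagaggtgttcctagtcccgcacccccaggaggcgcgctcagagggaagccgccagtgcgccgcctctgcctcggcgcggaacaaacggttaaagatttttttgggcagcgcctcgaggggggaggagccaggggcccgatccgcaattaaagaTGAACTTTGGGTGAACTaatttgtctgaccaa
The annotated start of Rarb-201, at 16575543, lies upstream of the RefSeq start at 16575476. The element lies 53 to 37 bases before the start in Rarb, and 32 to 16 bases before it in Cyp26a1, where it reads on the other strand as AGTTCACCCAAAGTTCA. The search used the hexamers AGGTCA, the variant AGTTCA, the variant GGTTCA and the variant GGGTCA in any pair, on both strands, in the 32851 RefSeq promoters of 300 bases. It matched 32 of them (0.0974%), and of the 18 promoters of the 10 receptor genes it matched 1, that of Rarb. Of the 11 promoters found for 8 genes of the retinoic acid response list it matched 1, that of Cyp26a1.

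Other spacings and motifs were searched in the same windows. Repeats spaced by 0, 1 and 2 bases, the spacings known for COUP-TFs, GCNF and RXR pairs, were in 0.213%, 0.222% and 0.268% of all promoters and in none of the 18. A single hexamer was in 43.7% of all promoters and in 11 of the 18. The longer motifs AAAAGTCA and TCAAGGTCA were in 1.40% and 0.423% of all promoters and in none of the 18. AAGTCA, the hexamer known for Tlx, was on either strand in 15.1% of all promoters and, of the 18, in that of Nr2e1. Such a match is a description of the letters and not a bound site, and no match says only that these letters are not in the window. Of the 31 genes with the repeat spaced by 5, 16 were in the gene table and 8 were measured, and of these 1 was higher in telencephalon and 4 were lower, with a median log2 ratio of -0.94. The 4 lower genes were Rarb, Cyp26a1, Ppbp and Blvrb, and the higher one was Syndig1, named here after their values were seen. For comparison, 9.39% of all measured genes were higher and 21.2% were lower. Cyp26a1 was at 0 in the telencephalon table column, against 1.36 FPKM in whole body.

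Rarg (ENSMUSG00000001288), the RAR of cartilage and skin, lies at chr15:102234938-102257517 on the minus strand. It had 1.70 FPKM in telencephalon and 38.9 FPKM in whole body, 22.9-fold lower in telencephalon (fragment interval 18.6 to 28.6, from 91 fragments in telencephalon and 2685 in whole body), with a log2 ratio of -3.89. This was the smallest log2 ratio of the 49 nuclear receptors. The nearest among the other receptors were Hnf4a, a liver and gut receptor with 0.262 FPKM in telencephalon and 8.48 FPKM in whole body, Nr3c1, the glucocorticoid receptor, with 1.35 FPKM in telencephalon and 8.34 FPKM in whole body, and Nr5a2, an orphan receptor, with 0.804 FPKM in telencephalon and 3.64 FPKM in whole body. Their log2 ratios differed from that of Rarg by 0.98, 1.90 and 2.52. No exon bases of Rarg were shared with another gene, and its neighbour Itgb7 had 0.188 FPKM in telencephalon and 1.33 FPKM in whole body.

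The 2 groups of Rarg isoforms that had reads start at 102246500 and at 102257349 to 102257517, and their promoters are shown because the difference was far larger at one of them. Each line gives the 250 bases before the RefSeq start on GRCm38.p6, 5′ to 3′ on the minus strand, at chr15:102246501-102246750 for the downstream start and chr15:102257523-102257772 for the upstream start. No letters are in capitals, since neither holds a repeat of the hexamers above spaced by 5 bases.
Rarg downstream: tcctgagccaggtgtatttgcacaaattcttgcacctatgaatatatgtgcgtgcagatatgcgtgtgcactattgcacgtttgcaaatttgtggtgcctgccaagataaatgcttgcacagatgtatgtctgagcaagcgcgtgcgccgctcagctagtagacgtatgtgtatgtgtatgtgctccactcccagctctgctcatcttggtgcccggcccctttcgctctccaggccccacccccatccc
Rarg upstream: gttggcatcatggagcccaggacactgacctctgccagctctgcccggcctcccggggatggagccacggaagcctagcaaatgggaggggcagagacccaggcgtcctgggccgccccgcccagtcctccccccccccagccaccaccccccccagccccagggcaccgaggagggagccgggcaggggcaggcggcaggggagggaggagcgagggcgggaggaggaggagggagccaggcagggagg
The isoform of the downstream start, Rarg-202, had 1.60 FPKM in telencephalon and 14.1 FPKM in whole body, 8.86-fold lower in telencephalon (95% interval 7.19 to 11.3, from 86 fragments in telencephalon and 993 in whole body). The isoforms of the upstream start, Rarg-201 and Rarg-205, had 0.101 FPKM in telencephalon and 24.7 FPKM in whole body, 245-fold lower in telencephalon, with a wide interval of 128 to 1207 from 4 fragments in telencephalon and 1692 in whole body. These intervals leave out the error in how fragments were divided among isoforms, so they cannot decide whether the starts differ. The downstream start held 94.1% of the FPKM of Rarg in telencephalon and 36.4% in whole body. The upstream promoter is rich in G and C, with 74.4% of its bases against 52.4% in the downstream one.

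Rxra (ENSMUSG00000015846), the RXR of heart and eye development, lies at chr2:27676440-27762957 on the plus strand. It had 16.8 FPKM in telencephalon and 44.5 FPKM in whole body, 2.64-fold lower in telencephalon, with a log2 ratio of -1.35, and 2.97-fold lower by fragments (95% interval 2.80 to 3.15). Isoforms that start between 27676440 and 27677262, led by Rxra-201, had 13.1 FPKM in telencephalon and 41.6 FPKM in whole body, 3.18-fold lower. Isoforms that start between 27709292 and 27710583 had 3.79 FPKM in telencephalon and 2.98 FPKM in whole body, 22.5% of the gene in telencephalon and 6.69% in whole body. The counting interval of the ratio of the downstream group, 0.971 to 1.57, includes equal levels. Within this pair Rxra-202 had 3.78 FPKM in telencephalon and 0.0668 FPKM in whole body, and Rxra-203 had 0.00953 FPKM in telencephalon and 2.91 FPKM in whole body. How fragments were divided between them was not tested.

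Rxrg (ENSMUSG00000015843), an RXR of muscle and of striatal neurons, lies at chr1:167598384-167639623 on the plus strand. It had 2.97 FPKM in telencephalon and 6.78 FPKM in whole body, 2.29-fold lower in telencephalon by FPKM (fragment interval 1.75 to 2.71). Its log2 ratio of FPKM + 1 was -0.97, just short of 2-fold, since the added 1 FPKM weighs on low genes. Rxrg-201 held 78.7% of the FPKM in telencephalon and 53.5% in whole body. Rxrb, the RXR that is not among the 10 genes, had 31.9 FPKM in telencephalon and 34.3 FPKM in whole body and is needed to read the family. The 3 RXR genes summed to 51.7 FPKM in telencephalon and 85.7 FPKM in whole body, 1.66-fold lower in telencephalon. Rxrb made up 61.7% of the sum in telencephalon and 40.1% in whole body, while Rxra made up 32.6% in telencephalon and 52.0% in whole body. By depth-scaled fragments the sum was 1.98-fold lower in telencephalon. On that scale Rxrb made up 50.8% in telencephalon and 27.9% in whole body, and Rxra 45.4% in telencephalon and 67.9% in whole body.

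**Figure D3:**
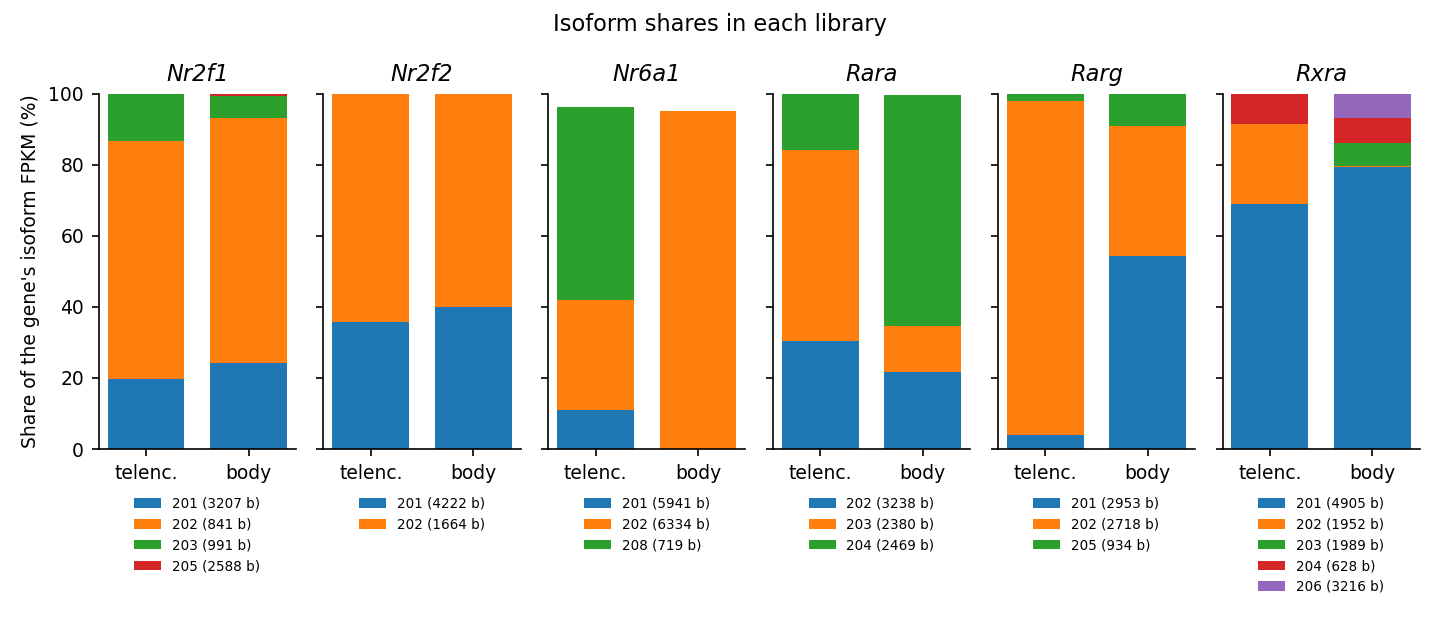
Share of each isoform in the summed isoform FPKM of its gene, in percent, for 6 of the 10 genes, with the telencephalon library left of the whole body library and isoform lengths in the legends. Isoforms under 0.1 FPKM in both libraries are not drawn. The leading isoform differs between the libraries in Nr6a1, Rara and Rarg, where Rarg-202 holds 94.1% in telencephalon and 36.4% in whole body.

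Across the 10 genes, 25 of the 53 isoforms had at least 1 FPKM in either library, and 8 genes had at least 2 such isoforms. The isoform with the highest FPKM differed between telencephalon and whole body in 3 genes, Nr6a1, Rara and Rarg. By estimated fragments it differed in 2, Rara and Rarg, since Nr6a1-202 then led in both libraries, with 68.7% in telencephalon and 99.5% in whole body. How many of all genes differ in this way was not counted, so these counts have no background share.

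Genes that supply, carry and break down retinoic acid, the ligand of the RARs, were lower in telencephalon for the most part. Of 14 genes 12 were measured, 10 were lower, none was higher, and the median log2 ratio was -1.78, against -0.16 for all measured genes. Of all measured genes 21.2% were lower and 9.39% higher. Rbp4, the plasma carrier of retinol, had 0.148 FPKM in telencephalon and 134 FPKM in whole body, and Aldh1a2, the main retinoic acid synthase of the early embryo, had 0.0456 FPKM in telencephalon and 21.6 FPKM in whole body. Aldh1a3, another synthase and within 2-fold, had 3.20 FPKM in telencephalon and 4.26 FPKM in whole body. Aldh1a1, Cyp26a1 and Cyp26c1 were listed at 0 in telencephalon.

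The list of genes known to respond to retinoic acid shares 4 genes with the one above. Of 15 genes 11 were measured, 1 was higher in telencephalon and 7 were lower, with a median log2 ratio of -1.16. Among all measured genes 9.39% were higher and 21.2% were lower, with a median of -0.16. Meis2, a homeobox gene of the striatal anlage and the limb, was the higher one, with 201 FPKM in telencephalon and 67.7 FPKM in whole body. Dhrs3, a retinaldehyde reductase, had 0.521 FPKM in telencephalon and 16.8 FPKM in whole body, and Tgm2, a transglutaminase, had 1.49 FPKM in telencephalon and 28.0 FPKM in whole body. The mesenchyme, liver and epithelium markers moved with both lists, and their part was not tested.

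Of 22 corepressors and coactivators of nuclear receptors, 21 were matched in the table and all 21 were measured. Of these, 4 were higher in telencephalon and 0 lower, with a median log2 ratio of 0.18. Over all measured genes 9.39% were higher and 21.2% lower, with a median of -0.16. The 4 higher cofactor genes were Bcl11b, Rcor2, Bcl11a and Kat2b. Bcl11b, also called Ctip2 and known as a partner of COUP-TFs, had 114 FPKM in telencephalon and 14.9 FPKM in whole body, and its relative Bcl11a had 89.4 FPKM in telencephalon and 29.0 FPKM in whole body. Rcor2, a subunit of a histone demethylase complex, had 94.0 FPKM in telencephalon and 27.8 FPKM in whole body, and Kat2b, a histone acetyltransferase, had 18.3 FPKM in telencephalon and 8.17 FPKM in whole body. At the other end Ncoa3 had 7.63 FPKM in telencephalon and 15.2 FPKM in whole body, and Rcor1 had 12.4 FPKM in telencephalon and 21.8 FPKM in whole body, both within 2-fold. Ncor1, the main corepressor of unliganded RARs, had 77.0 FPKM in telencephalon and 75.2 FPKM in whole body, and was added to the named genes after its value was seen.

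Genes of the processes for which Nr2f1 and Nr2f2 are known were compared as lists. Beside them, 9.39% of all measured genes were higher and 21.2% were lower, with a median log2 ratio of -0.16. Of 15 genes of cortical area patterning 13 were measured, with 5 higher in telencephalon, 4 lower and a median log2 ratio of 0.93. This split depended on the scaling, with 9 higher with a pseudocount of 0.1 FPKM or in TPM, and 2 lower with a common upper quartile. Pax6 had 64.0 FPKM in telencephalon and 10.4 FPKM in whole body, and Lhx2 had 91.3 FPKM in telencephalon and 20.4 FPKM in whole body, both being transcription factors of cortical progenitors. The lowest were the growth factor signalling genes Etv5, with 5.77 FPKM in telencephalon and 20.6 FPKM in whole body, and Spry2, with 6.03 FPKM in telencephalon and 16.2 FPKM in whole body. Of 12 genes of the caudal ganglionic eminence and ventral interneurons 11 were measured, and 10 were higher in telencephalon, with a median of 3.73. Dlx2 had 212 FPKM in telencephalon and 5.40 FPKM in whole body, and Dlx1 had 140 FPKM in telencephalon and 5.46 FPKM in whole body. Both drive the development of inhibitory neurons. The least different measured genes were Calb2, with 4.70 FPKM in telencephalon and 1.35 FPKM in whole body, and Prox1, with 9.29 FPKM in telencephalon and 5.22 FPKM in whole body, and Prox1 lay within 2-fold. The telencephalon and progenitor markers moved in the same direction, several of them being in these lists, and their part was not tested.

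**Figure D4:**
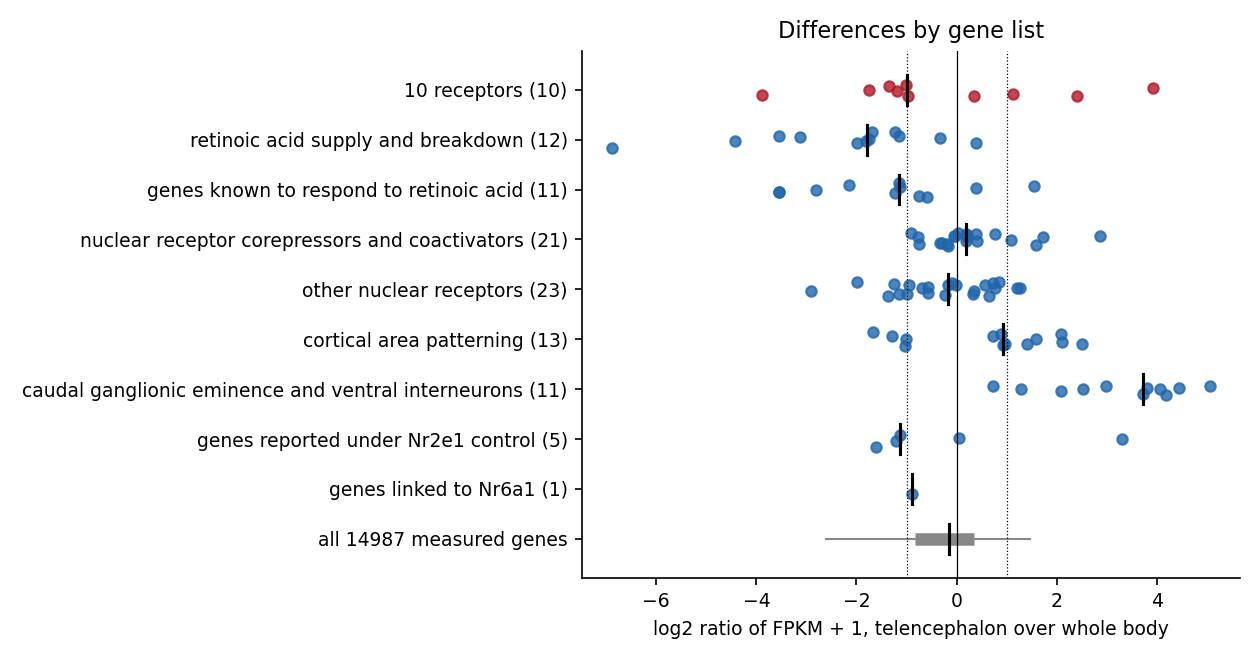
Log2 ratio of FPKM + 1, telencephalon over whole body, for each measured gene of the 10 receptors and of 8 lists, with the number measured in brackets, a black bar at the median and dotted lines at 2-fold. The bottom row shows the quartiles of all 14987 measured genes as a thick bar. The 10 receptors spread over both sides, from -3.89 to 3.92, while the retinoic acid supply list has its median at -1.78 and the interneuron list at 3.73.

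Other scalings and sums of the same values moved large and small differences alike, as plotted for each gene, and turned the direction of Nr6a1. The COUP-TF genes Nr2f2 and Nr2f6 and the RXR gene Rxrg lay near 2-fold, with log2 ratios of 1.05 to 1.29 for Nr2f2, -1.05 to -0.87 for Nr2f6 and -1.17 to -0.92 for Rxrg over the settings. Nr2e1 lay between 3.90 and 4.60, and Rarg between -4.44 and -3.77.

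**Figure D5:**
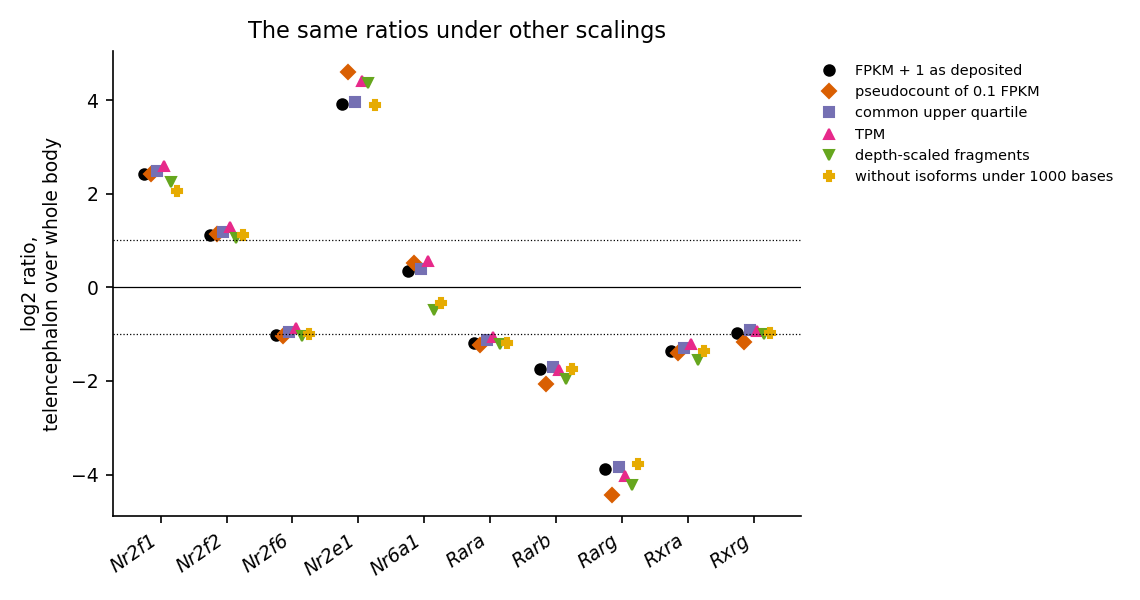
Log2 ratio of each receptor gene, telencephalon over whole body, under the deposited scaling and 5 alternative scalings or sums, with dotted lines at 2-fold. Nr6a1 changes sign, Nr2f2, Nr2f6 and Rxrg sit at the 2-fold lines, and Nr2f1, Nr2e1, Rara, Rarb, Rarg and Rxra stay beyond them in all 6.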

How the data were processed

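The libraries were made from total RNA of E12.5 ICR fetuses with a polyadenylated RNA kit that does not mark strand, 1 from telencephalon and 1 from whole body. The authors deposited FPKM per gene and per isoform in 2 tables, made with TopHat, Cufflinks and Cuffdiff on GRCm38 according to the submitters' processing notes, without versions. The sources used here do not give the annotation release. Deposited FPKM values are not counts, so no count model was run, and with 1 library per tissue no p-value was computed across genes.

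Genes were matched to GENCODE M21 (GRCm38) by identifier, which gave coordinates, lengths and overlaps. The log2 ratio is log2((telencephalon FPKM + 1)/(whole body FPKM + 1)). This pseudocount pulls low genes towards 0. Depth was fitted to the lowest FPKM steps of genes with a single isoform, with 336 bases subtracted from each length in telencephalon and 320 in whole body. In telencephalon 92.0% of 1377 values and in whole body 93.8% of 1163 values came out as whole fragments within 0.1, where chance gives 20%. At 2000 bases, 3 fragments correspond to 0.0793 FPKM in telencephalon and 0.0610 FPKM in whole body. Fragments of a gene are the sum over its isoforms, and the fold interval is the exact 95% binomial interval scaled by depth. The depth fit and the calls were tested on simulated data with known answers. Promoters are from RefSeq (GRCm38.p6), where all 10 receptor genes matched.

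Named genes are the 10 receptors, the 2 highest and 2 lowest measured genes of each list by log2 ratio (every gene in lists of 8 or fewer), the 3 receptors closest to the extremes, and genes within 10000 bases with 1 FPKM or more. Some genes that this rule selects are not reported here. The receptors and the lists were chosen with earlier results of these data known. The promoter and zinc finger searches, the grouping of isoforms by start, and the settings of depth-scaled fragments (with 1 added on that scale) and of no isoforms under 1000 bases were added after the values were seen. Other settings were a pseudocount of 0.1, no floor, a floor of 5 FPKM, a common upper quartile, TPM, and no isoforms under 300 bases. Python 3.11.15, pandas 2.3.3, numpy 2.4.6 and scipy 1.17.1 were used.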

Additional observations from a re-analysis of the deposited data

How the results depend on the processing

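Under 8 alternative settings the log2 ratio of 9 receptor genes kept its sign. It ranged from 2.06 to 2.59 for Nr2f1, 1.05 to 1.29 for Nr2f2, 3.90 to 4.60 for Nr2e1, -1.24 to -1.06 for Rara, -2.06 to -1.70 for Rarb, -4.44 to -3.77 for Rarg and -1.55 to -1.22 for Rxra, all past 2-fold. The floors cannot change the ratio of a single gene, and leaving out isoforms under 300 bases moved none of the 10. Nr2f6 fell short of 2-fold with the common upper quartile (-0.95), in TPM (-0.87) and without isoforms under 1000 bases (-0.99), and Rxrg passed it with the pseudocount of 0.1 FPKM (-1.17). Nr6a1 reversed to -0.48 by depth-scaled fragments and to -0.33 without isoforms under 1000 bases, settings that give its 719-base isoform less or no weight. The count of lower receptors was 6 with the pseudocount of 0.1 FPKM. It was 4 with the common upper quartile, with TPM and without isoforms under 1000 bases, and 5 otherwise. Beside these, 3813 of 14987 measured genes were lower with the pseudocount of 0.1 FPKM and 3038 of 14976 with the common upper quartile. In TPM 3594 of 16791 were lower, without isoforms under 1000 bases 2690 of 13367, and with the deposited scaling 3170 of 14987. Among all genes, 2065 were lower at a floor of 5 FPKM and 2126 were higher in TPM, which moved the median of all genes by 0.14, and 17 genes of the lists were lower at the floor of 5 FPKM, against 26; fewer genes were tested at that floor. Of 128 list counts, 13 moved. The area patterning list had 9 higher with the pseudocount of 0.1 FPKM and in TPM. The other nuclear receptors had 2 to 13 lower, against 5 of 23 measured, beside 21.2% of all measured genes. The 13 came by depth-scaled fragments, where 3519 of 15209 genes were lower. The 2 came at the floor of 5 FPKM, where 2065 of 10909 genes were lower. No paired analysis was possible because each tissue has 1 library and the labels give no replicate numbers, and no library could be left out for the same reason. Depth limits Nr6a1, Rxrg, Rarg and Nr2e1 most, through 129, 115 and 91 fragments in telencephalon and, for Nr2e1, 112 in whole body.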
